A study of Homo sapiens with 6 samples.

Results

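The genes described here are the 3 TAM receptor tyrosine kinases AXL, MERTK and TYRO3 with their ligands GAS6 and PROS1, and the MET family receptors MET and MST1R with HGF, the ligand of MET. They were taken by gene symbol, and all 8 were found among 54261 gene rows. The control group was 786-O, a widely used human cell line from a clear-cell renal carcinoma that lacks functional VHL, and the resistant group was 7R, which the labels describe as 786-O cells resistant to sunitinib. Sunitinib inhibits the VEGF and PDGF receptors and several related kinases. Total RNA of each line was sequenced as 3 libraries. The labels do not say how 7R was derived, whether it is 1 clone, whether sunitinib was present at harvest or whether a line's replicates were grown apart, so each p-value reflects only how much these libraries varied, and that spread may be technical.

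TAM receptors are activated by GAS6 and by protein S, the product of PROS1, both vitamin K-dependent proteins whose carboxylated end binds phosphatidylserine on dying cells and membrane vesicles while the other end binds the receptor. GAS6 binds all the TAM receptors, and protein S acts through TYRO3 and MERTK. HGF is secreted by mesenchymal cells as an inactive precursor, is cut by serine proteases and then drives growth and scattering of epithelial cells through MET, and MST1 is the corresponding ligand of MST1R, also called RON. In clear-cell renal carcinoma AXL and MET are both known as genes that are raised when VHL is lost, and cabozantinib, a drug used in this disease, inhibits both.

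The 3 control libraries held 48264905 to 52221491 counts and the 3 resistant libraries 37919629 to 38131634. Levels are CPM, counts scaled to a common library size with trimmed-mean (TMM) factors, and fold changes are resistant over control. Resistant replicate 1 stood apart within its line, since chi-square divided by its degrees of freedom was 62.9 and 60.1 against the other resistant libraries and 8.94 between those. Control replicate 1 also stood apart, by less, at 26.5 and 35.5 against the other control libraries and 12.4 between those. Of 16642 genes tested, 76.2% were called at an adjusted p of 0.05 (39.3% higher and 36.9% lower in the resistant line), and fold change followed GC content across 13960 genes (Spearman's rho -0.68, over genes that are not independent replicates). For that reason a second value, called the adjusted fold change, is given beside each, from which smooth curves of GC content and length had been subtracted library by library. After that adjustment 66.9% of 13960 genes were called, 34.3% higher and 32.6% lower. Of 10 renal epithelial markers 9 were tested, and 8 were lower and 0 higher in the resistant line (median log2 fold change -1.10). After adjustment 3 were higher and 4 lower (median -0.22). PAX8 was at 545 ± 47.2 and 407 ± 8.89 CPM in control and resistant libraries (log2 fold change -0.42, adjusted 0.50). KRT8 was at 1609 ± 117 and 415 ± 95.4 CPM (-1.96, adjusted -0.64). The leukocyte genes PTPRC, AIF1, TYROBP, CD3E and MS4A1 had 0 counts in each library. Of 11 macrophage and leukocyte markers, which together summed to 39.9 to 46.7 CPM in control and 8.41 to 10.3 CPM in resistant libraries, the only one tested was CD68, a lysosomal gene, at 42.1 ± 3.79 and 9.24 ± 0.962 CPM (log2 fold change -2.19, adjusted -1.23). The extraction text of the labels mentions brain tissue while every other label names cells, and of 11 neuron and glia markers STMN2 and MOG had 0 counts in all 6 libraries, with a sum of 26.4 to 32.0 CPM in control and 50.1 to 55.7 CPM in resistant libraries, most of it MBP. Of the 4 tested, 3 were higher (MBP, SNAP25 and AQP4) and 0 lower in the resistant line, and 4 were higher after adjustment. The part of these markers in the results was not tested.

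Of the 8 genes, 6 passed the filter on low counts. AXL, TYRO3, GAS6 and MET were lower in the resistant line, PROS1 was higher, and MERTK did not pass the test. In bulk RNA of a line, fewer cells that express a gene and less RNA per cell cannot be told apart. Because 76.2% of all genes tested were called, 5 calls among 6 genes is a share near that of any genes, and what sets the members apart from each other is direction and size. The CPM of the lines did not overlap for the 5 called genes, as for 80.3% of all genes tested.

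**Figure D1:**
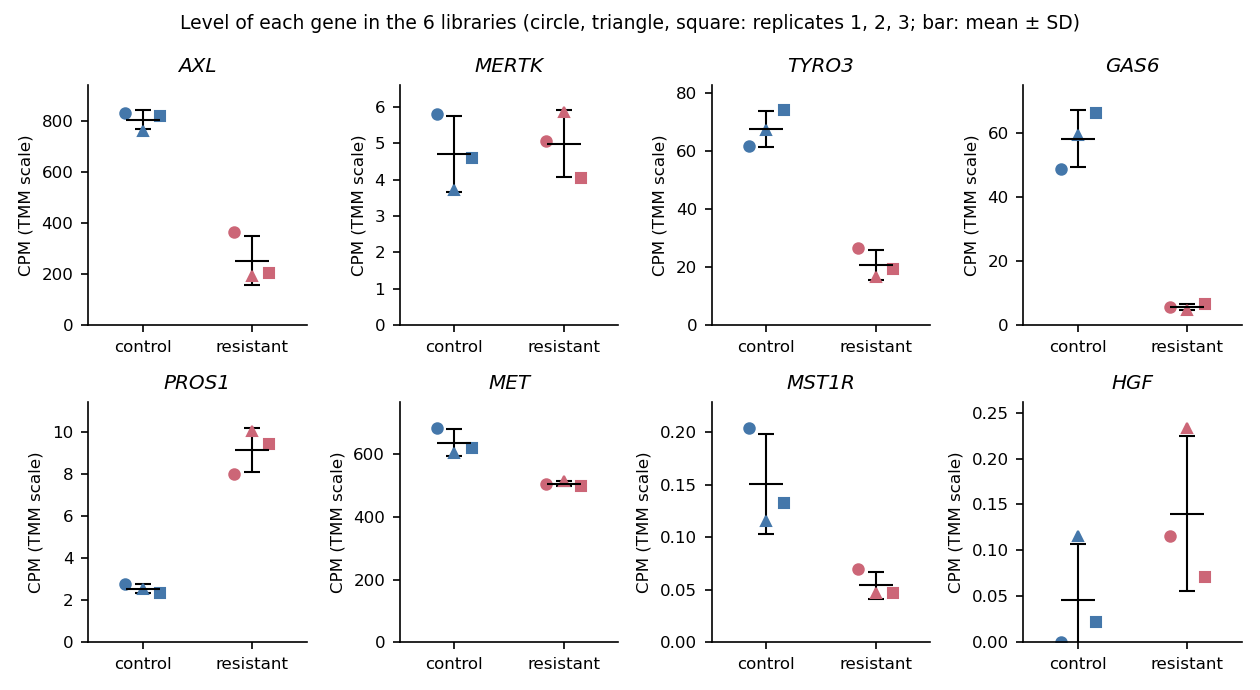
CPM on the TMM scale (vertical axes, each from 0) of the 8 genes in the 3 control and 3 resistant libraries, with mean ± SD. AXL, TYRO3, GAS6 and MET are lower in each resistant library than in each control library, PROS1 is higher in each, and MERTK and HGF overlap (the SD bar of HGF in control libraries reaches below 0 and is not drawn there).

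The starts of 3 genes that fell (AXL, TYRO3 and GAS6) and of the TAM ligand gene that rose (PROS1) are shown so that their sequence can be set beside these directions. All 8 members matched the RefSeq promoter table (build GRCh38.p14), from which the 250 bases upstream of each start are printed in the direction of the gene, with matches to 4 motifs in capitals on either strand. The windows are chr19:41218973-41219222 on the plus strand for AXL, chr15:41558962-41559211 on the plus strand for TYRO3, chr13:113864077-113864326 on the minus strand for GAS6 and chr3:93973897-93974146 on the minus strand for PROS1.
AXL: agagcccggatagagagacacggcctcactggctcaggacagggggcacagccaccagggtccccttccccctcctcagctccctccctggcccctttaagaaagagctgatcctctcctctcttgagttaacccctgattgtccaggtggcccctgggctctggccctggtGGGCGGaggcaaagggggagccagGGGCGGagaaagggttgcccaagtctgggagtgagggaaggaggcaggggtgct
TYRO3: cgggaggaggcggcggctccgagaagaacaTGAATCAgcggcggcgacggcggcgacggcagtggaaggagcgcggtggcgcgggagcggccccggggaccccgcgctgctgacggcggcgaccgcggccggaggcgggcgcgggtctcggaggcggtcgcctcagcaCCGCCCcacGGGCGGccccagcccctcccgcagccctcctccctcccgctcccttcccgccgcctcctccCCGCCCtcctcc
GAS6: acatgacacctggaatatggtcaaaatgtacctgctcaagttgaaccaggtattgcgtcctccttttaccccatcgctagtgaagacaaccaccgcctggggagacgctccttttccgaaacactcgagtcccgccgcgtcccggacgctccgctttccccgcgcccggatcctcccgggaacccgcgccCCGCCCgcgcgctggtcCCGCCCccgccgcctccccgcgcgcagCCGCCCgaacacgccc
PROS1: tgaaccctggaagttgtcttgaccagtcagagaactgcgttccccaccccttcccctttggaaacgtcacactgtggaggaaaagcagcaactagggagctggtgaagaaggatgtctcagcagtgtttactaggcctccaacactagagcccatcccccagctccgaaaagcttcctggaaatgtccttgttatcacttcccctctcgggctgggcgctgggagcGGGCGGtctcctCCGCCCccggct
The motifs searched were the GC box GGGCGG bound by SP1, the AP-1 site TGANTCA, the TEAD site GGAATG and the hypoxia-factor core ACGTG, and matches of different motifs did not overlap in these windows. GC boxes numbered 2 for AXL, 3 for TYRO3, 3 for GAS6 and 2 for PROS1, so those genes held at least 1 whichever way they moved, as did 42.6% of all 35116 such windows. The AP-1 search allowed any base at N. Its single match, TGAATCA, was in TYRO3, and 6.57% of all windows held a match to these looser letters. None of the 4 windows held the TEAD or the hypoxia-factor letters, which 11.9% and 18.5% of all windows held. The windows differed in GC content, at 64.4% for AXL, 80.0% for TYRO3, 66.8% for GAS6 and 57.6% for PROS1, against a median of 58.0%. These counts of RNA do not read the promoters, and a match is no evidence of binding.

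AXL, the most abundant of the TAM receptors here, was at 829, 760 and 819 CPM in control replicates 1 to 3 and at 363, 192 and 203 CPM in the resistant ones. Each resistant library was below each control library, and resistant replicate 1 was the highest of its line. The mean was 3.18-fold lower (803 ± 37.6 against 253 ± 96.0 CPM, SD, n = 3), with a log2 fold change of -1.67 ± 0.20 (SE, edgeR adjusted p = 1.14e-05). Without resistant replicate 1 it was -2.03. The adjusted log2 fold change was -0.63 ± 0.15 (adjusted p = 0.00351), that is 1.54-fold lower, and 18.5% of the 878 tested genes within 1 percentage point of its GC content of 58.5% had a lower fold change.

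TYRO3, a TAM receptor that binds both ligands, was at 61.5, 67.2 and 73.9 CPM in the control libraries and at 26.4, 16.4 and 19.4 CPM in the resistant ones. The groups did not overlap, and resistant replicate 1 was again the highest of its line. The log2 fold change was -1.71 ± 0.16 (edgeR adjusted p = 1.73e-06), and the adjusted one was -1.05 ± 0.12 (adjusted p = 1.68e-05). TYRO3 has a pseudogene, TYRO3P, with which reads may be shared. TYRO3P had 16, 7 and 8 counts in control and 26, 36 and 30 in resistant libraries, so it moved the other way (log2 fold change 1.60 ± 0.47, edgeR adjusted p = 0.00828), at levels under 1 CPM. Its adjusted log2 fold change was 2.61 ± 0.48 (edgeR adjusted p = 5.73e-04).

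MERTK, the TAM receptor known for clearance of dying cells by macrophages and retinal epithelium, was at 5.79, 3.71 and 4.59 CPM in control and 5.05, 5.87 and 4.03 CPM in resistant libraries. The groups overlapped, and the log2 fold change of 0.08 ± 0.21 did not pass (edgeR adjusted p = 0.734). The sign was not stable: it was -0.11 without control replicate 2, -0.055 without resistant replicate 2 and -0.079 ± 0.20 after adjustment. MERTK was measured with 161 to 255 counts per library. The ratio of its summed counts was 1.06, with an exact 95% interval of 0.947 to 1.18 that covers counting error only.

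Because both numbers of a ratio come from the same library, ratios between genes do not depend on how libraries were scaled to each other, but they do depend on the GC and length trend. Per kilobase of transcript, AXL exceeded TYRO3 by 25.4, 21.3 and 20.9 times in control libraries and by 26.0, 22.1 and 19.7 times in resistant ones. Before adjustment the means of 22.5 ± 2.50 and 22.6 ± 3.15 differed by less than the spread between libraries, and the difference in log2 ratio ranged from -0.10 to 0.09 when each library was left out in turn. With the trend of each library taken out, an alternative chosen after the data were seen, the ratio was 22.4, 18.3 and 18.0 in control and 28.5, 26.0 and 23.2 in resistant libraries, which did not overlap. Before adjustment AXL made up 95.2 ± 0.344% of the summed TAM receptor level per kilobase in control and 93.9 ± 1.05% in resistant libraries. The sum itself fell from 263 ± 11.9 to 83.7 ± 30.8 CPM per kilobase. The share of MERTK, also before adjustment, was 0.631%, 0.439% and 0.503% in control and 1.25%, 2.68% and 1.76% in resistant libraries, with no overlap. MERTK itself did not pass the test. Its log2 fold change and that of AXL were 0.08 and -1.67 before adjustment and lay closer together after it, at -0.079 and -0.63. The share was not worked out with the trend taken out.

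The TAM ligands moved in opposite directions. GAS6 was at 48.7, 59.4 and 66.4 CPM in control and 5.65, 4.65 and 6.67 CPM in resistant libraries, the largest change among the members. Its mean fell 10.3-fold, from 58.1 ± 8.92 to 5.66 ± 1.01 CPM (SD, n = 3), with a log2 fold change of -3.36 ± 0.17 (edgeR adjusted p = 3.07e-08), and 1.08% of all genes tested had a lower fold change. The adjusted log2 fold change was -1.89 ± 0.12 (adjusted p = 2.62e-07). GAS6 was the most GC-rich of the 6 tested genes at 63.7%, and 82.7% of the 527 genes of similar GC content fell, but 2.85% of them had a lower fold change than GAS6.

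GAS6 shares its locus with antisense genes, and how the counting treated strand is not given in the sources used here; their reads cannot be told apart from those of GAS6. GAS6-AS2 had 23, 19 and 46 counts in control and 2, 0 and 0 in resistant libraries (edgeR adjusted p = 1.62e-04), lower as GAS6 was. GAS6-AS1 had 35, 25 and 7 counts against 36, 26 and 27 and did not pass before adjustment (edgeR adjusted p = 0.451). After adjustment GAS6-AS1 was higher, opposite to GAS6 (adjusted log2 fold change 1.33 ± 0.53, edgeR adjusted p = 0.0453). GAS6-AS2 had no GC value and so no adjusted fold change. Both were at most 46 counts in any library, where GAS6 had 199 to 3004.

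PROS1, which encodes protein S, an anticoagulant cofactor as well as a TAM ligand, was at 2.77, 2.56 and 2.34 CPM in control and 7.99, 10.0 and 9.42 CPM in resistant libraries. Each resistant library was above each control library, and resistant replicate 1 was the lowest of its line. The mean rose 3.58-fold, from 2.56 ± 0.215 to 9.15 ± 1.06 CPM (log2 fold change 1.84 ± 0.17, edgeR adjusted p = 1.58e-06), and the adjusted log2 fold change was 0.76 ± 0.14 (adjusted p = 4.81e-04). With a GC content of 40.3% it was the most AT-rich of the tested members, and 77.3% of the 1148 genes of similar GC content had a lower fold change. Its pseudogene PROS2P, with which reads may be shared, had at most 5 counts in a library.

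Per kilobase, GAS6 exceeded PROS1 by 23.3, 30.9 and 37.7 times in control libraries, while in resistant libraries the ratio was 0.940, 0.615 and 0.940. With the trend on GC content and length taken out, the ratio was 11.5, 12.6 and 13.3 in control and 1.75, 1.78 and 2.46 in resistant libraries, so GAS6 was then above PROS1 in all 6. The ratio was lower in each resistant library than in each control library either way, but which ligand had the higher level in the resistant line depended on the adjustment. Before adjustment the summed ligand level was 24.1 ± 3.52 CPM per kilobase in control and 5.04 ± 0.437 in resistant libraries. The within-library log2 ratio of GAS6 to PROS1 differed by -5.20 between the lines before adjustment (-5.38 to -5.00 with each library left out in turn) and by -2.66 after it.

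MET was at 684, 604 and 620 CPM in control and 505, 513 and 498 CPM in resistant libraries. The groups did not overlap, and the resistant libraries varied by 1.45% (coefficient of variation), the least of the members. The means were 636 ± 42.4 and 505 ± 7.32 CPM, and the log2 fold change was -0.33 ± 0.09 (edgeR adjusted p = 0.00652). This small decrease depended on scaling: with library size alone, which moved the median of all genes from 0.05 to 0.39, it was 0.0091 (adjusted p = 0.938), and after adjustment for GC content and length it was -0.98 ± 0.07 (adjusted p = 3.70e-07). Of the 1283 tested genes within 1 percentage point of MET's GC content of 44.0%, 63.6% rose and 10.2% fell, and 11.8% had a lower fold change than MET.

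**Figure D2:**
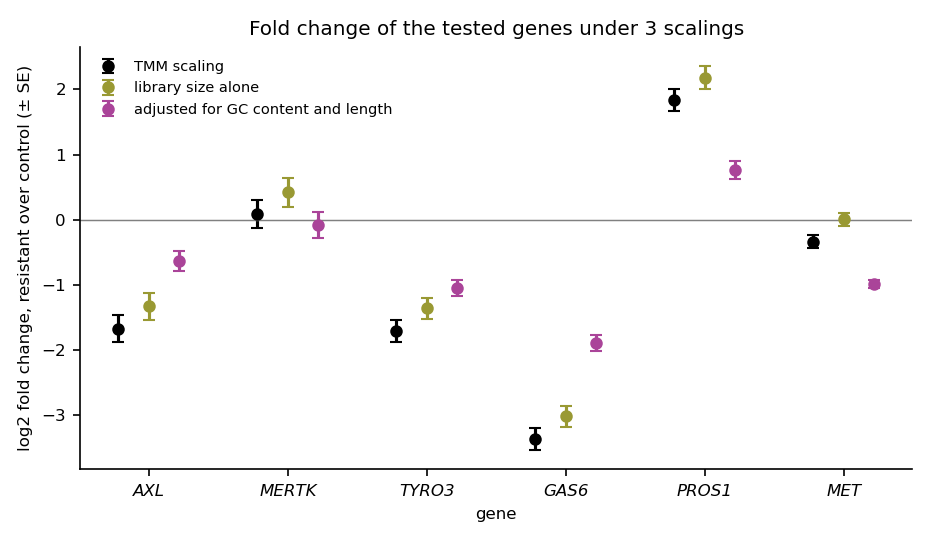
Log2 fold change, resistant over control, with SE (vertical axis), of the 6 tested genes under TMM scaling, library size alone and the adjustment for GC content and length. AXL, TYRO3 and GAS6 are below 0 and PROS1 is above 0 under each, with smaller changes after adjustment, while MET moves from 0.0091 with library size alone to -0.98 after adjustment.

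MST1R had 9, 5 and 6 counts in control and 3, 2 and 2 in resistant libraries, too few to pass the filter. The ratio of its summed counts on the TMM scale was 0.362 (exact 95% interval 0.129 to 0.890, counting error only), with no p. HGF had 0, 5 and 1 counts in control and 5, 10 and 3 in resistant libraries, which overlapped. The ratio was 3.10 (1.18 to 9.54, counting error only). It was 12.5 without control replicate 2 and 2.07 without control replicate 1 or without resistant replicate 2. A count of 0 allows up to 3 counts, or 0.0681 CPM in control replicate 1.

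HGF is a product of mesenchymal cells, so markers of other cell types are given beside it. HGF had 0 counts in control replicate 1. The fibroblast markers COL1A2, COL3A1 and DCN and the endothelial markers PECAM1 and CDH5 also had 0 there. Each of these had at least 2 counts in each other library. Of the other fibroblast and endothelial markers, COL1A1, LUM, THY1, FAP and VWF had 156, 74, 60, 5 and 1 counts in control replicate 1. PDGFRA, TEK, ERG and CLDN5 had 0 there and in some other libraries. Genes outside these marker lists, among them TIMP3, INSR and PRSS8, also had 0 only in control replicate 1. The 8 fibroblast markers summed to 6.70 to 8.04 CPM in control and 20.8 to 44.1 CPM in resistant libraries, of which LUM rose from 1.69 ± 0.149 to 30.3 ± 12.4 CPM and COL1A1 fell. PDGFRA and FAP had 0 counts in 3 and 4 of the libraries, no fibroblast marker was at 0 in all of them, and 5 of the 8 were tested, with 1 higher and 1 lower. After adjustment 2 were higher and 0 lower, and COL1A1 did not pass (0.24, edgeR adjusted p = 0.333). The part of these markers in the values of HGF was not tested.

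Levels per kilobase, without adjustment, gave the order of the genes in each line. In control libraries it was AXL (250 ± 11.7 CPM per kilobase), MET (137 ± 9.15), GAS6 (23.3 ± 3.58), TYRO3 (11.2 ± 1.03), MERTK (1.38 ± 0.308), PROS1 (0.772 ± 0.0649), MST1R (0.0359 ± 0.0113) and HGF (0.0226 ± 0.0303), and no neighbours in that order overlapped except the last. In resistant libraries MET led (109 ± 1.58), followed by AXL (78.8 ± 29.9), TYRO3 (3.43 ± 0.849), PROS1 (2.77 ± 0.319), GAS6 (2.27 ± 0.405) and MERTK (1.47 ± 0.271), with HGF (0.0693 ± 0.0417) and MST1R (0.0130 ± 0.00310) last. There AXL and MET overlapped, since AXL in resistant replicate 1 (113) was above MET (109) and in the others (60.0 and 63.2) below it, and TYRO3, PROS1 and GAS6 overlapped as neighbours. AXL over MET was 1.75, 1.82 and 1.91 in control and 1.04, 0.542 and 0.588 in resistant libraries. That direction depended on the adjustment: with the trend taken out, the ratio was 1.09, 0.983 and 0.948 in control and 1.60, 1.09 and 1.14 in resistant libraries, which overlapped, and the difference in log2 ratio went from -1.40 to 0.33.

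**Figure D3:**
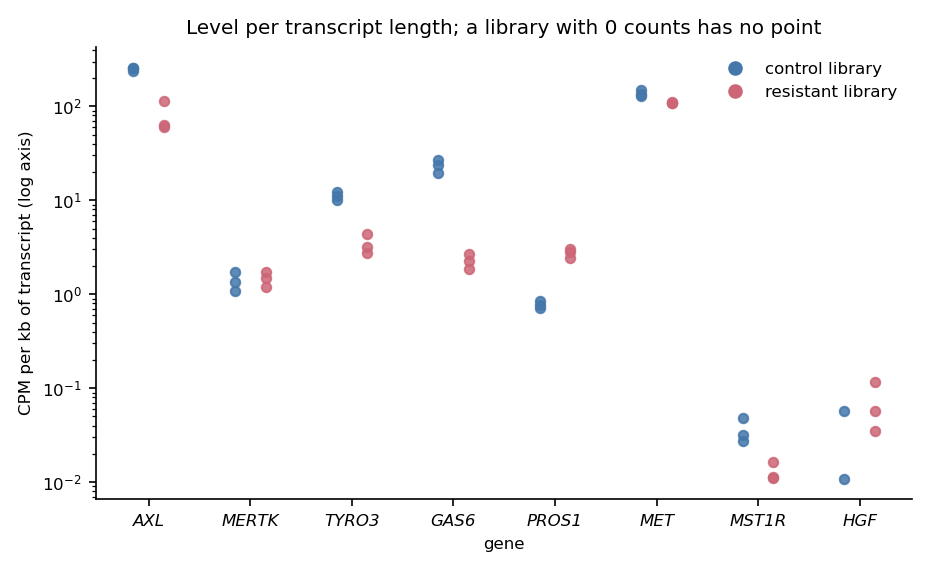
Level per kilobase of transcript before adjustment for GC content and length (vertical log axis) of the 8 genes in each control and resistant library. GAS6 lies above PROS1 by over an order of magnitude in control libraries and just below it in resistant ones, and AXL lies above MET in control libraries and, in 2 of 3 resistant libraries, below it; after adjustment GAS6 was above PROS1 in all 6 libraries and the AXL to MET ratio moved the other way.

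**Figure D4:**
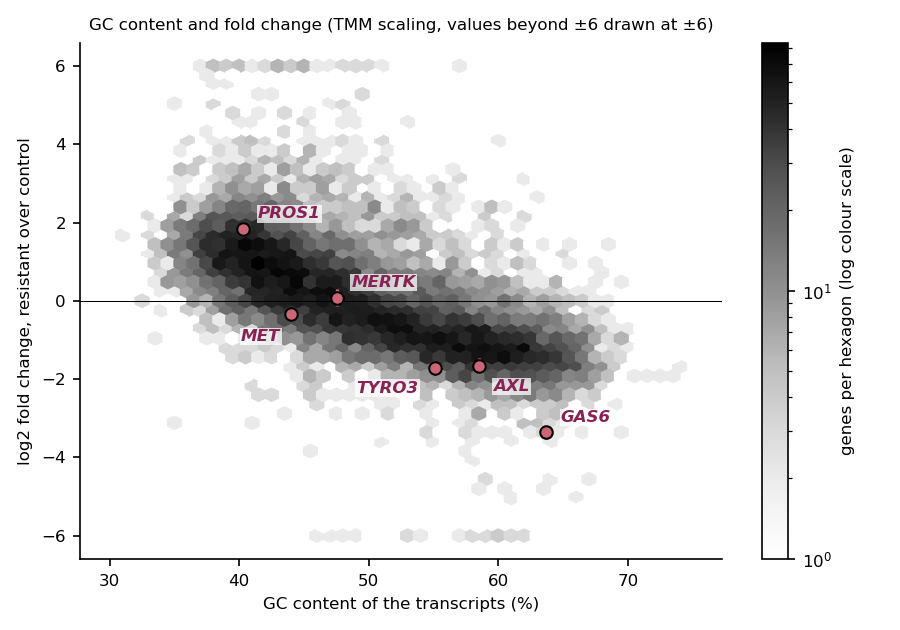
GC content of the transcripts (horizontal axis, %) and log2 fold change on the TMM scale (vertical axis) of 13960 genes as shaded hexagons, with the 6 tested members as points. AXL lies within the cloud of genes of its GC content, GAS6 lies at its lower edge, and MET lies below most genes of like GC content.

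The plot of GC content against fold change shows the members in that trend. Genes within 1 percentage point of AXL's GC content had a median log2 fold change of -1.12, against -1.67 for AXL. For TYRO3 the median of 840 genes was -0.84 and 8.57% had a lower fold change. For PROS1 the median was 1.19, for MET 0.67, for MERTK 0.17 and for GAS6 -1.36, so AXL, TYRO3, GAS6 and MET lay below and PROS1 above the median of genes with similar GC content. MERTK lay close to its median, with 46.4% of 1117 genes lower.

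Genes with the most similar profile were found by the Euclidean distance between log2 CPM over the 6 libraries, each centred on its mean, among 8967 named genes with at least 5 CPM. For AXL these were PKDCC (distance 0.21), MMRN2 (0.21) and NDUFS7 (0.21). TYRO3 was nearest to STOML1 (0.07), UBE2S (0.09) and RMRP (0.11), and GAS6 to SLC44A2 (0.42), COL6A1 (0.44) and ARTN (0.47), at larger distances. PROS1 was nearest to ATR (0.05), WDR35 (0.09) and TFPI (0.12), and MET to SLC35B4 (0.06), CHCHD3 (0.07) and TAF3 (0.08). TYRO3 and STOML1 both lie on chromosome 15, PROS1 and ATR on chromosome 3, AXL and NDUFS7 on chromosome 19, and MET, SLC35B4 and CHCHD3 on chromosome 7, where HGF also lies. The others (PKDCC, MMRN2, UBE2S, RMRP, SLC44A2, COL6A1, ARTN, WDR35, TFPI and TAF3) lie on a different chromosome from their member. How many would share a chromosome by chance was not worked out.

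The nearest tested coding genes on the chromosome, chosen after the values were seen, were looked up in RefSeq order, 4 on either side. The median adjusted log2 fold change of these neighbours was 0.03 for AXL, 0.06 for GAS6, 0.09 for TYRO3, 0.14 for PROS1 and 0.13 for MERTK. Before adjustment the median was -1.27 for AXL, -0.05 for GAS6, -0.06 for TYRO3, 1.15 for PROS1 and 0.94 for MERTK. Neighbours lower and higher after adjustment numbered 0 and 2 for AXL, 3 and 3 for GAS6, 2 and 1 for TYRO3, 3 and 1 for PROS1 and 1 and 2 for MERTK. Around MET, CAV2 (-1.58), CAV1 (-1.02), CAPZA2 (-0.99) and ST7 (-0.42), which directly flank it, were lower after adjustment as MET was (-0.98), with 5 of 8 neighbours lower and 2 higher. CAV1 and CAV2 encode caveolins. Before adjustment CAV1 and CAV2 were lower (-0.55 and -0.68) and CAPZA2 (0.29, edgeR adjusted p = 0.0523) and ST7 (-0.11, adjusted p = 0.381) did not pass. After adjustment the 553 tested coding genes of chromosome 7 had a median of -0.01. Next to AXL, CYP2S1, a cytochrome P450 gene at a low level, was at 0.0451 ± 0.0226 CPM in control and 1.11 ± 0.136 CPM in resistant libraries while AXL fell. The other neighbours of AXL were all lower before adjustment, as AXL was, with log2 fold changes from -0.72 (ITPKC) to -1.53 (B9D2).

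Other genes of these pathways were taken from lists written from knowledge of the pathway. Where a list had 5 or fewer genes in a direction they are named, with 1 exception. The median log2 fold change of all genes tested was 0.05, and 0.02 after adjustment, and each list is read against the 39.3% and 36.9% of all genes that were higher and lower. No list was tested as a set.

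Of 13 genes for ligand carboxylation, phosphatidylserine exposure and other bridging ligands, 11 were tested, 5 were higher and 4 lower (median 0.10, adjusted -0.12). ATP11B, a flippase that returns aminophospholipids to the inner leaflet, rose from 44.2 ± 5.13 to 157 ± 32.3 CPM and was also higher after adjustment (1.10). VKORC1, which recycles the vitamin K needed to carboxylate GAS6 and protein S, went from 56.0 ± 4.62 down to 20.2 ± 1.33 CPM (-1.47 on the log2 scale and -0.44 adjusted), and LGALS3, a galectin reported as a MERTK ligand, fell from 21.2 ± 1.84 to 7.85 ± 0.946 CPM (adjusted -0.52). The scramblase gene ANO6, the flippase subunit TMEM30A and VKORC1L1 were higher before adjustment and lower after it (-0.22, -0.39 and -0.52). The bridging ligand gene MFGE8 and the scramblase gene XKR8 were lower before and higher after it (0.78 and 0.87).

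Engulfment genes downstream of TAM receptors gave 5 higher (PTK2, DOCK1, ITGAV, VAV3 and GULP1) and 5 lower (BCAR1, ITGB5, VAV2, ELMO2 and RAC1) of 11 tested, and 2 higher and 7 lower after adjustment (median -0.17, adjusted -0.34). PTK2, the focal adhesion kinase, rose from 110 ± 10.5 to 310 ± 12.8 CPM (adjusted log2 fold change 0.97), and with DOCK1 (0.88, adjusted 0.66) it was higher in both. BCAR1, the adaptor p130Cas, fell from 399 ± 25.1 to 103 ± 11.7 CPM (adjusted -0.45), and the integrin gene ITGB5 and the exchange factor gene VAV2 fell by 1.03 and 1.06 on the log2 scale (adjusted -0.40 and -0.20). ITGAV and GULP1 were higher before adjustment and lower after it (-0.36 and -0.51).

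Of 15 genes for activation of HGF and MST1, only 7 passed the filter. The protease inhibitor genes SPINT2 and SERPINA5 and the protease gene ST14, which encodes matriptase, were higher. SPINT2, which inhibits the proteases that activate HGF, rose from 18.2 ± 3.01 to 45.8 ± 3.20 CPM (log2 fold change 1.33 ± 0.14, edgeR adjusted p = 2.91e-06, adjusted 2.34). SERPINA5 had 0, 7 and 1 counts in control and 39, 44 and 40 in resistant libraries, and ST14 had 16, 11 and 2 against 50, 62 and 58. F12, PLAU and MST1 were lower, F12 from 6.07 ± 0.834 to 2.28 ± 0.454 CPM, PLAU, the urokinase gene, from 46.4 ± 6.43 to 30.3 ± 2.30 CPM and MST1, the MST1R ligand, from 1.37 ± 0.156 to 0.686 ± 0.227 CPM. After adjustment F12, PLAU and MST1 did not pass (0.16, 0.02 and 0.28), all 7 genes were above 0, 4 were higher and 0 lower by edgeR's test, and the median moved from 0.76 to 1.98. Both medians were the values of F2, which had 1, 5 and 14 counts in control and 12, 16 and 5 in resistant libraries, which overlapped. F2 did not pass before adjustment (edgeR adjusted p = 0.377) and was higher after it (edgeR adjusted p = 0.0352). MST1 has near-identical copies, MST1L and MST1P2, with at most 13 counts in a library, between which reads may be split.

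Adaptors and signalling effectors of these receptors were all tested, with 9 of 21 higher and 10 lower (median -0.23), and 10 higher and 5 lower after adjustment (median 0.19). PTPN11, the phosphatase SHP2 that MET signalling recruits through GAB1, rose from 152 ± 16.4 to 476 ± 73.1 CPM, by 1.65 on the log2 scale and by 1.62 after adjustment. AKT1 fell from 303 ± 20.7 to 80.2 ± 10.6 CPM (-1.92, adjusted -0.73). SOS1, an activator of RAS, was higher in both (1.63, adjusted 0.21), and PIK3R2, a regulatory subunit of PI3-kinase, was lower before adjustment and higher after it (-1.23, adjusted 0.37). GRB2 and GAB1, the adaptors that dock on MET, had log2 fold changes of -0.56 and 0.87 (adjusted -0.18 and 0.19, the latter with an edgeR adjusted p of 0.221).

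Of 12 MET co-receptor and partner genes, all tested, 8 were lower and 1, ITGA6, higher (median -0.67). After adjustment 6 were higher and 3 lower (median 0.16), and PLXNB1 and PLXNB2 were called in opposite directions before and after it. NRP1, a semaphorin and VEGF co-receptor that also associates with MET, kept its direction and fell to 15.6 ± 0.238 CPM in resistant libraries, where control libraries had 198 ± 11.7 CPM, with a log2 fold change of -3.67 ± 0.11 (edgeR adjusted p = 1.52e-09, adjusted -4.21). SDC1, a heparan sulphate proteoglycan, fell from 303 ± 26.3 to 75.5 ± 17.7 CPM (adjusted -0.89), and CD44 was lower by a smaller amount (-0.45, adjusted -0.38). CD151 and PLXNB3 fell by 1.44 and 1.23 on the log2 scale and did not pass after adjustment (-0.04 and 0.12). Without resistant replicate 1 the higher genes numbered 2.

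Negative regulators and sheddases gave 5 higher (ADAM17, ADAM10, PTPN2, SH3KBP1 and CBLB) and 5 lower (PTPRF, HGS, SOCS3, PTPN1 and SOCS1) of 14 tested, and 4 and 5 after adjustment. ADAM17 and ADAM10, proteases that shed the outer part of AXL, MERTK and MET, rose from 33.6 ± 2.86 to 99.9 ± 19.7 CPM and from 93.0 ± 7.38 to 175 ± 35.5 CPM. ADAM17 was higher after adjustment (0.66) and ADAM10 did not pass (0.01, edgeR adjusted p = 0.959). PTPRF, a receptor phosphatase, fell from 577 ± 36.4 to 118 CPM (-2.29, adjusted -1.12) and SOCS3, a feedback inhibitor of cytokine signalling that TAM receptors induce in immune cells, from 14.5 ± 0.555 to 3.78 ± 0.853 CPM (-1.94, adjusted -0.73). HGS, which sorts receptors for degradation, fell by 1.31 and did not pass after adjustment (0.09).

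**Figure D5:**
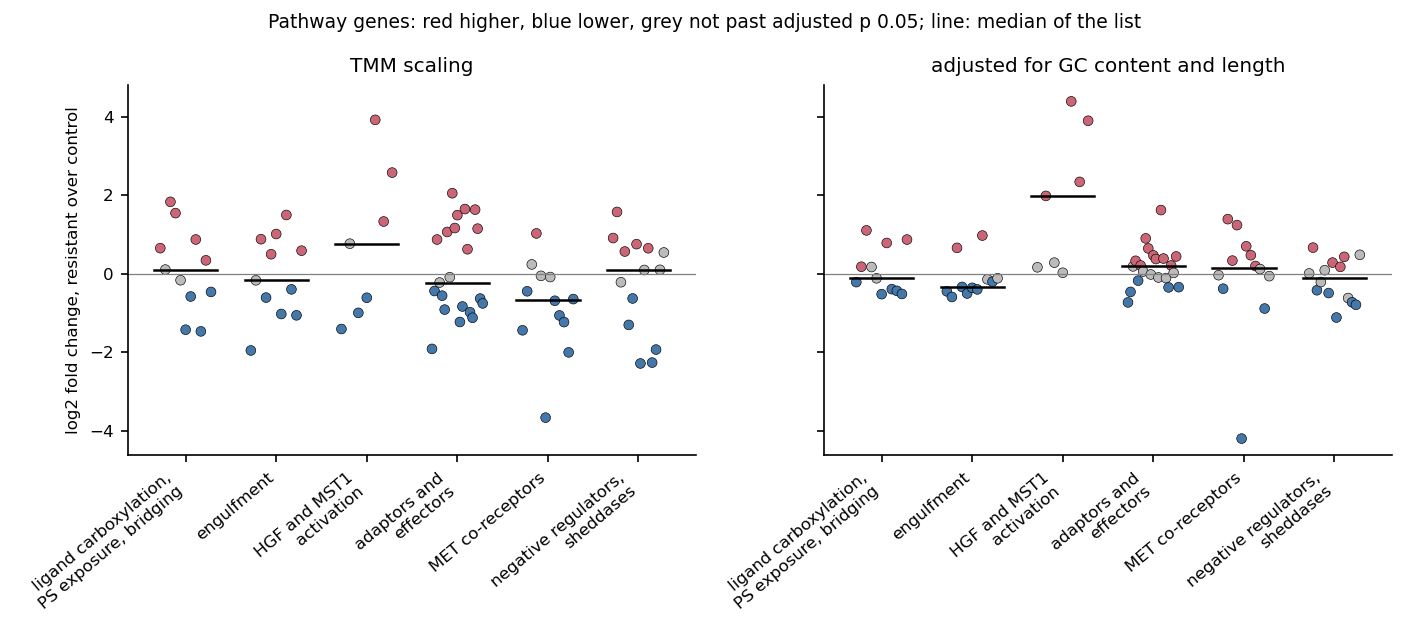
Log2 fold change, resistant over control (vertical axis), of each tested gene of the 6 pathway lists (horizontal axis), on the TMM scale (left) and after adjustment for GC content and length (right), with the median of each list as a line. MET co-receptors lie mostly below 0 at left, with a median of -0.67, and are spread about 0 at right, with NRP1 at -4.21 as the lowest point.

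Among the 58 human receptor tyrosine kinases, the family to which the 5 receptors described here belong, 29 were tested, 16 were lower and 6 higher (median -0.58), and 15 were lower and 9 higher after adjustment (median -0.44). AXL at -1.67, TYRO3 at -1.71 and MET at -0.33 lay within a range whose lowest gene was ROR2, with 1226, 1078 and 1505 counts in control and 0, 1 and 0 in resistant libraries. IGF1R fell by 2.56 on the log2 scale (adjusted -2.57), while RYK and PDGFRB were higher (0.89 and 1.45, adjusted 0.32 and 2.38).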

How the data were processed

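Total RNA of 3 control (786-O) and 3 resistant (7R) libraries was measured, grouped by their titles. The deposited values are raw read counts for each gene symbol and library, per the file headers. HISAT2 2.0.4 was among the tools used, per the submitters' processing notes. For the counting program, strand setting, build and annotation, the sources used here give nothing, and overlapping or near-identical genes may share reads. Genes kept by edgeR's filterByExpr were tested by its quasi-likelihood method (edgeR 4.0.16, R 4.3.3) without covariates. TMM factors ran from 0.867 to 0.912 for control libraries, and resistant libraries had 1.12 to 1.14. Benjamini-Hochberg adjustment was over all genes tested. A standard error is the size of the log2 fold change divided by the root of F. GC content and length are medians over GENCODE release 29 basic transcripts, perhaps not those the authors counted on, and 83.9% of tested genes had a value. For the adjustment, splines with 6 degrees of freedom for GC content and 5 for log2 length were fitted to the deviations of each library in log2 CPM (prior count 1) and entered as offsets, which also takes out biological differences that follow GC content. The code of these tests was first checked on simulated counts, and all values given are from the deposited counts. Exact intervals and floors (3 counts) reflect counting error alone and leave out variation between libraries. They also treat each read as a separate molecule, which PCR duplicates are not.

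The members and gene lists were chosen with earlier results of these data known. Named genes are the members, up to 4 genes of each pathway list with the smallest p, up to 2 called against a list's majority, copies and antisense genes of members and the 3 genes with the most similar profile. Genes named beyond that rule were chosen after their values were seen. For 1 gene that the rule selects, the result is not reported here. Profiles used log2(CPM + 0.01). Alternatives were other scalings, DESeq2 1.42.0, other low-count filters, the GC adjustments, the replicate block and leaving out each library.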

Additional observations from a re-analysis of the deposited data

How the results depend on the processing

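The calls of AXL, TYRO3, GAS6 and PROS1 kept their direction and stayed past the threshold under each alternative run, and so did that of MET except with library size alone (0.0091). MERTK was past the threshold under none, and its sign turned with the adjustment for GC content and length (-0.079, with resistant replicate 1 also left out -0.093), with GC content alone (-0.068), without control replicate 2 (-0.11) and without resistant replicate 2 (-0.055), and with the adjustment and the replicate block (-0.075). With each library left out, the log2 fold changes were -2.03 to -1.51 for AXL, -0.11 to 0.21 for MERTK, -1.93 to -1.57 for TYRO3, -3.53 to -3.24 for GAS6, 1.74 to 1.92 for PROS1 and -0.42 to -0.32 for MET.

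Counts of genes called moved by over 1.5 times as follows. Library size alone gave 2 lower bridging genes, 1 lower ligand activation gene and 3 higher co-receptor genes. The higher co-receptor genes numbered 2 with upper-quartile factors, with a filter of 1 CPM in 3 libraries, with the genes that have a GC value unadjusted, and in the range of 1 to 2 with each library left out. Adjustment for GC content and length gave 2 higher engulfment, 0 lower ligand activation, 5 lower adaptor, and 6 higher and 3 lower co-receptor genes, and all 7 tested genes of the ligand activation list were then above 0. GC content alone gave 2, 0, 4, 6 and 3 for the same counts, 3 higher negative regulators and 10 higher receptor kinases. The adjustment without resistant replicate 1 gave 2, 0, 6, 6 and 3, with 8 lower engulfment genes and 11 higher receptor kinases.

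Across the table, library size alone gave 7851 higher and 4720 lower genes (against 6540 and 6143). The adjustment for GC content and length, chosen for these ratios after the data were seen, moved the difference in within-library log2 ratio from -5.20 to -2.66 for GAS6 to PROS1 and from 0.0003 to 0.41 for AXL to TYRO3, and turned it from -1.40 to 0.33 for AXL to MET.

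The replicate numbers in the titles did not pair the libraries: deviations of same-numbered libraries from their line's mean correlated at -0.13, -0.01 and -0.06, and no library correlated best with its own number. With the replicate block 6246 genes were higher and 5851 lower, and the members kept their calls. The block with the adjustment gave 3 higher bridging, 2 higher engulfment, 0 lower ligand activation, 4 lower adaptor, 5 higher and 3 lower co-receptor genes and 3 higher negative regulators. MST1R and HGF had at most 10 counts in a library, which limits what can be said of them. The cause of these movements was not tested.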
